A study of Mus musculus with 59 samples.

Results

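Collagens are the triple-helical proteins that give the extracellular matrix its tensile strength and anchor epithelia to the tissue beneath them. The 36 collagen genes measured here were chosen by name, as every gene with a collagen alpha chain symbol in a table of named lists, out of 18193 genes with a probe set of their own. They were ordered by textbook function into 10 fibrillar chains, 6 chains of the type IV basement membrane network and 20 minor chains. The levels came from 59 Affymetrix mouse arrays, 1 for each sample, of serous epithelial ovarian carcinoma (SEOC) models and normal ovarian epithelium, all in strain FVB/NJ. Every level is an RMA log2 intensity, a background-corrected and quantile-normalized summary of a probe set, so a difference of 1 is a doubling. Levels were compared between samples for a given gene and never between genes, because probe sets differ in brightness.

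The arrays formed a published set of 26 primary tumors and 3 normal samples and a new set of 5 primary and 25 passaged tumors. In the published set, 14 tumors were K18 tg with p53 fl/fl and B1 fl/fl (Brca1-deficient, p53 deleted), and 4 were K18 tg with p53 fl/fl alone (Brca wild type, p53 deleted). Another 3 combined K18 tg with p53 m/fl and B1 fl/fl, and 5 combined it with p53 m/fl and B2 fl/fl (Brca1- or Brca2-deficient with a p53 missense allele). In the new set, 18 tumors were K18 tg with both cp D/D and B1 D/D, that is with p53 and Brca1 deleted (2 primary and 4, 4, 4, 2 and 2 of passages 1 to 5), and 12 were K18 D/D with cp D/D (3 primary, 4 of passage 1 and 5 of passage 2). All tumors thus carried the K18 transgene, in which the cytokeratin 18 gene drives a Cre-dependent protein that inactivates the RB family. Cre was delivered as an adenovirus under the ovarian bursa, so recombination was not restricted by a tissue-specific promoter. Passaged tumors grew from fragments placed under the bursa of immunocompetent FVB females, and their collagen signal can therefore include the recipient's stroma. The 3 normal samples were wild type.

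RNA was taken from whole frozen pieces, in which fewer cells of a type and less collagen RNA per cell cannot be told apart. The labels do not give the line of each passaged tumor, so tumors of 1 line entered as separate samples and the p-values over them can be too small. Nothing in the labels says that the 3 normal samples came from separate mice, and the p-values against them measure the spread between these samples, which may be technical. Arrays 3 and 4 of the passage 3 Brca1-deficient tumors differed by an SD of only 0.0722 over all genes, and a passage 2 wild type array differed by 0.0803 from a passage 2 array labelled Brca1-deficient, against 0.209 for the next closest pair. Counting each such pair once and leaving out the pair whose labels differ kept the same collagen calls between Brca1 genotypes and per passage, and added Col5a1 and Col4a4 to those of passaged tumors against normal samples. A tumor of the published set, Brca1-deficient and p53-deleted, was also profiled in the new set.

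Fibrillar chains (types I, II, III, V, XI and XXVII) assemble into the banded fibers of stroma, where fibroblasts are the main source. Type IV chains form sheet-like networks under epithelia and around vessels and are made as neighboring gene pairs, Col4a1 with Col4a2, Col4a3 with Col4a4 and Col4a5 with Col4a6. Minor chains decorate fibrils (types IX, XII, XIV, XVI and XIX), build beaded filaments (type VI), short networks (types VIII and X) and anchoring fibrils (type VII), carry endostatin-type domains (types XV and XVIII) or span the cell membrane (types XIII, XVII, XXIII and XXV).

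Collagen levels varied widely between tumors. The SD over the 56 tumor arrays was above that of the median gene, 0.358, for 29 of the 36 collagens, that is for 9 of 10 fibrillar, 3 of 6 basement membrane and 17 of 20 minor chains. Col25a1, a membrane-spanning chain first known from amyloid plaques, had the highest SD of the 36 at 1.98 and spanned 6.78 log2 units. This is its brighter probe set, and the dimmer one varied far less between tumors of the new set. Col1a2, the second chain of type I collagen, followed with an SD of 1.80 and a span of 6.95. Col8a1 (1.57), a short-chain network collagen, Col4a4 (1.32) and Col3a1 (1.25) came next.

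**Figure D1:**
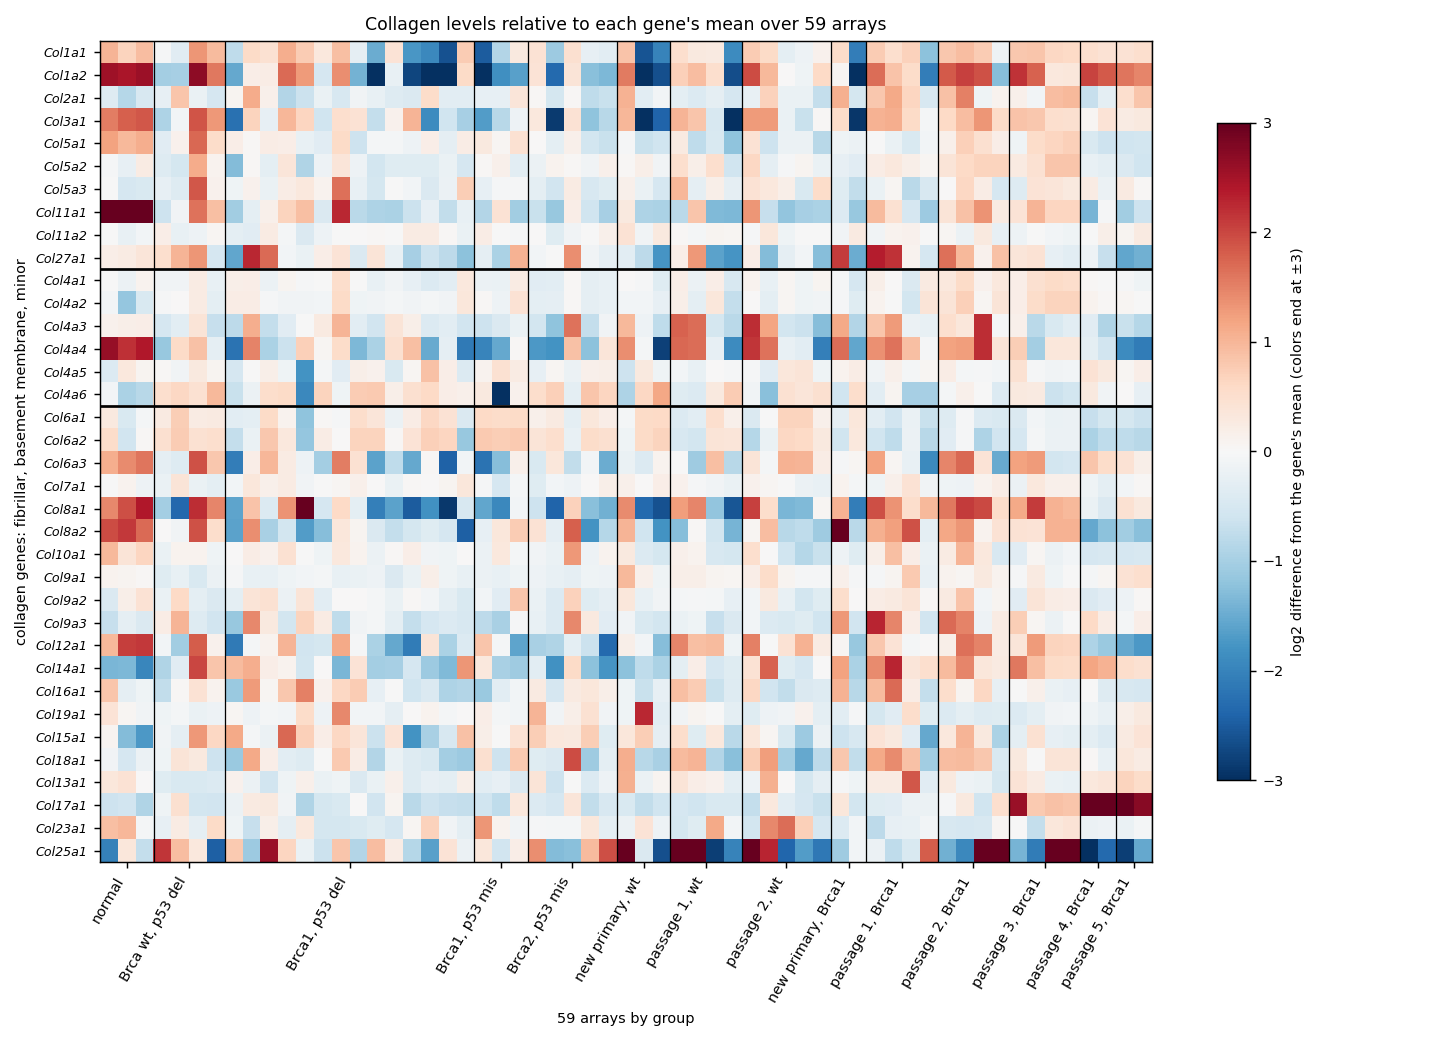
Heat map of the 36 collagen genes (rows, by class) in the 59 arrays (columns, by group). Color gives the log2 difference from each gene's mean over all arrays, with colors ending at 3 in each direction. It shows high Col11a1 and Col4a4 in the normal samples and the sharp contrast in the brighter Col25a1 probe set between tumors of the new set.

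The comparison of the 26 published primary tumors with the 3 normal samples asked how the tumors differ from the epithelium they were induced in. More collagens were lower than higher in the tumors. Of the 36 collagens, 2 rose and 12 fell in limma's test with Benjamini-Hochberg adjustment over all 18193 genes at a threshold of 0.05, against a background of 40.9% of all genes called, of which 2720 were higher and 4725 lower. The median log2 difference was -0.12 over the collagens and -0.11 over all genes. The share of collagens called is thus near the background of this comparison.

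Among the fibrillar chains 4 of 10 fell and none rose. Col11a1, which nucleates fibrils with type V collagen, measured 9.55, 9.78 and 10.46 in the normal samples and ran from 5.06 through a median of 5.68 to 8.46 in the tumors. All 26 tumors lay below every normal sample, as was the case for 7.94% of all genes. Col11a1 fell by 3.94 on the log2 scale (SE 0.50, 15.3-fold lower, limma adjusted p = 3.87e-07).

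Col1a2 was at 13.04, 12.96 and 13.06 in the normal samples and at 6.24, 9.49 and 13.19 (lowest, median and highest) in the tumors. Of 26 tumors, 25 were below the lowest normal sample and 1, a Brca wild type tumor, was above the highest, so the groups overlapped through 1 tumor. The difference was -3.31 (SE 1.01, 9.90-fold, limma adjusted p = 0.00963). Its partner Col1a1 was at 12.89, 12.54 and 12.81 in the normal samples and at 9.26, 12.01 and 13.21 in the tumors. For Col1a1, 20 tumors were below the normal range and 2 above it, and the difference of -1.08 did not pass the threshold (95% interval -2.37 to 0.21, limma adjusted p = 0.176).

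Col3a1, the chain of type III collagen, measured 12.98, 13.22 and 13.30 in the normal samples and 8.56, 11.23 and 13.33 in the tumors. Again 25 tumors were below the normal range and 1 above it, and Col3a1 fell by 2.02 (SE 0.65, limma adjusted p = 0.0131). Col5a1, a type V chain that regulates fibril diameter, had the same split of tumors and fell by 1.04 (SE 0.27, limma adjusted p = 0.00302). Col2a1, Col5a2, Col5a3, Col11a2 and Col27a1 had differences between -0.19 and 0.42 and did not pass the test.

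The type IV chains differed from each other. Col4a2 was at 12.01, 10.95 and 11.63 in the normal samples and at 11.80, 12.03 and 12.68 in the tumors. The tumors overlapped the highest normal sample, with 14 of 26 above it. Col4a2 rose by 0.56 (SE 0.16, 1.47-fold, limma adjusted p = 0.00589), but without the normal sample at 10.95 the difference was 0.27 with an adjusted p of 0.234. Col4a1 was at 12.29, 12.12 and 12.40 in the normal samples and at 11.88, 12.18 and 12.82 in the tumors, a difference of -0.04 (95% interval -0.32 to 0.25, limma adjusted p = 0.863). Its other probe set, which is dimmer, gave 0.50 (SE 0.24) and did not pass either.

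Col4a4, which joins Col4a3 and Col4a5 in the network of the kidney filter, was at 11.84, 11.42 and 11.63 in the normal samples and at 7.0, 8.76 and 10.70 in the tumors. All 26 tumors lay below every normal sample. Col4a4 fell by 2.90 (SE 0.63, 7.47-fold lower, limma adjusted p = 0.000531). Col4a3, Col4a5 and Col4a6 had differences of -0.34, -0.04 and 0.77 and did not pass the test.

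**Figure D2:**
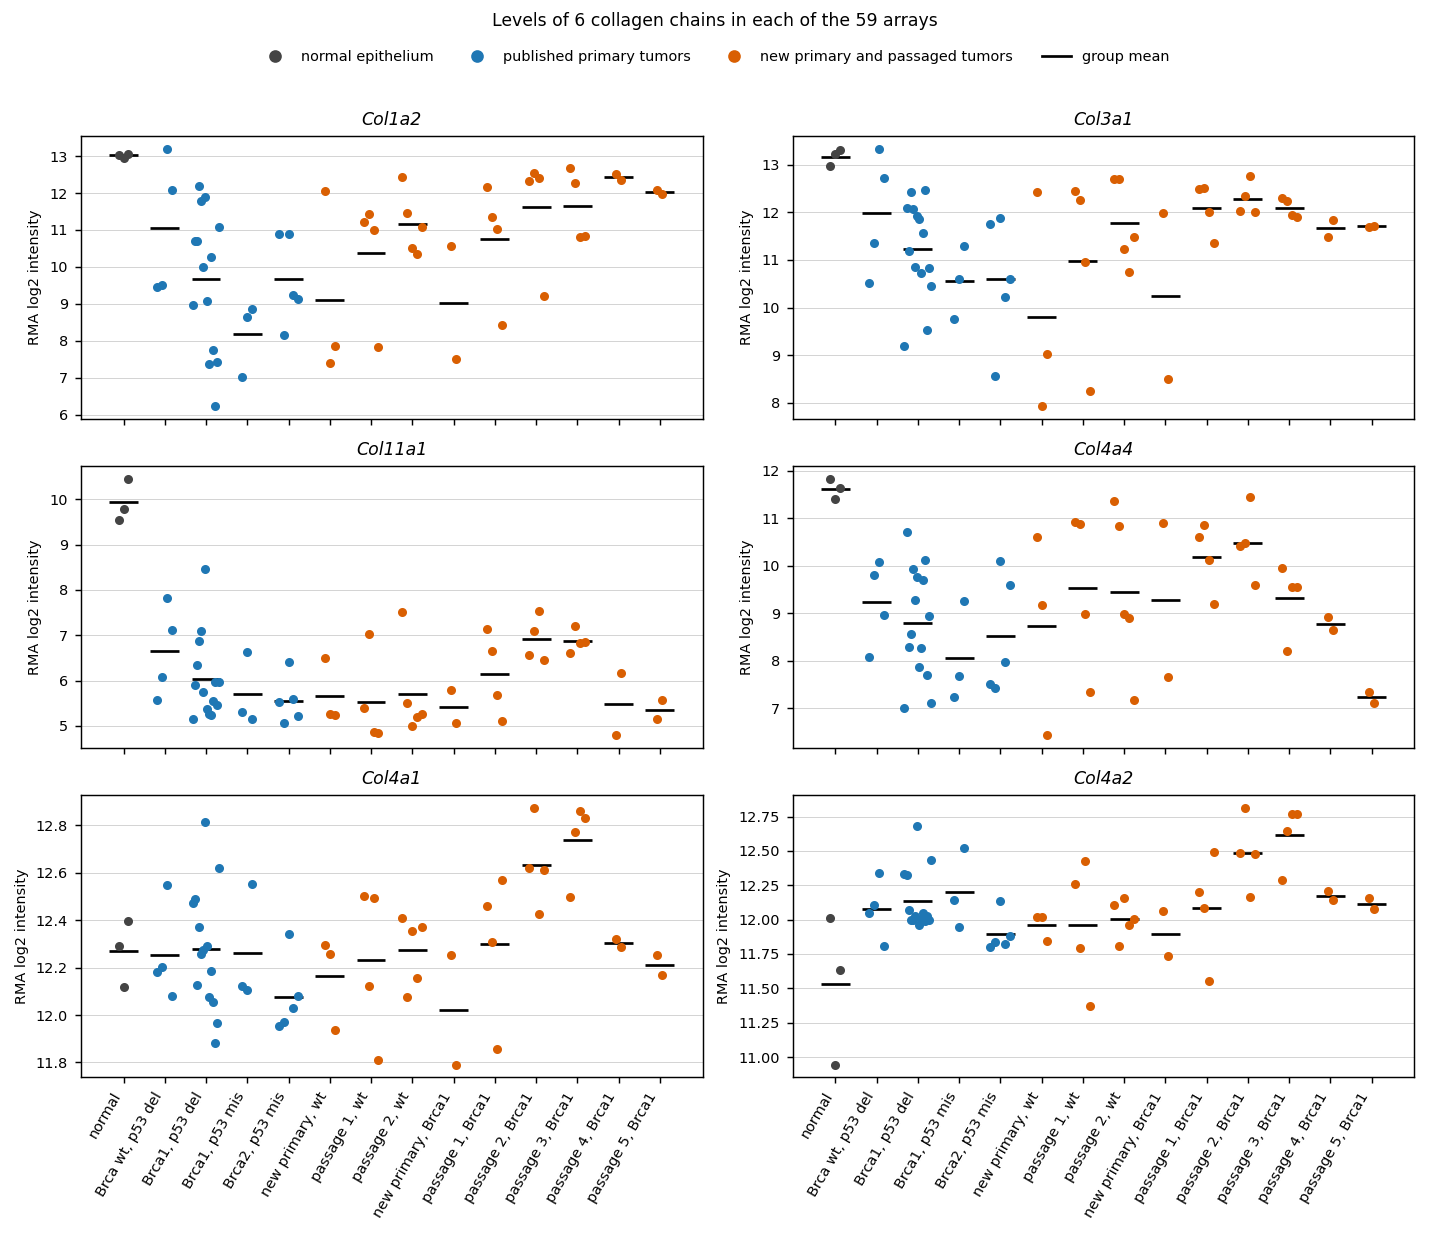
RMA log2 intensity of 6 collagen chains in each of the 59 arrays by group, with points for arrays and bars for group means. All tumors lie below the 3 normal samples for Col11a1 in the published set and in the passaged tumors, whereas Col4a1 tumors straddle the normal samples.

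Of the 20 minor chains 1 rose and 7 fell. The 3 short-chain network collagens all fell. Col8a1, made by vessel walls and Descemet's membrane, lay between 9.92 and 10.87 in the normal samples and was at 5.59, 7.66 and 11.60 in the tumors, a change of -2.55 (SE 0.88, limma adjusted p = 0.0210). Col8a2, its partner chain, was at 10.45, 10.63 and 10.20 against 6.05, 8.19 and 10.40 in the tumors, a change of -2.19 (SE 0.60, limma adjusted p = 0.00450). For both the highest tumors reached the normal range. Col10a1, known from growth plate cartilage, fell by 0.60.

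Col12a1, which sits on type I fibrils, measured 9.25, 10.36 and 10.39 in the normal samples and 5.94, 7.80 and 10.09 in the tumors and fell by 2.18 (SE 0.59, limma adjusted p = 0.00399). Col6a3, the long chain of the beaded filaments, ran from 9.92 to 10.44 in the normal samples and was at 6.39, 8.62 and 10.74 in the tumors, a change of -1.76 (SE 0.63, limma adjusted p = 0.0264). The other beaded filament chains Col6a1 and Col6a2 had differences of 0.24 and 0.28 and did not pass. Col9a1 and Col13a1 fell by 0.26 and 0.48. The mean of Col9a1 over all arrays was 4.67, at percentile 7.8 of all genes, and its other probe set (-0.16) did not pass.

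Col15a1, a basement membrane-associated chain, was the minor chain that rose. It measured 8.74, 7.35 and 6.93 in the normal samples and 6.85, 8.95 and 10.38 in the tumors, so the groups overlapped. The change was 1.20 (SE 0.45, limma adjusted p = 0.0315). Col14a1, a fibril-associated chain, was at 6.92, 6.94 and 6.33 against 6.47, 7.86 and 10.28, with 23 of 26 tumors above the normal range, and its difference of 1.26 (SE 0.57) did not pass (limma adjusted p = 0.0790).

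The 3 normal samples were few and unlike each other in Col4a2, Col12a1 and Col15a1, and the count of 14 collagens called became 8, 10 or 11 when 1 of them was left out. Without the sample that was lowest in Col4a2, the count was 8. The shares of all genes called without these samples are not set beside the counts. Col11a1, Col4a4, Col5a1, Col12a1, Col8a2 and Col1a2 passed whichever normal sample was left out. These values are of the brightest probe set of each gene. With all samples, the dimmer probe sets of Col5a1 gave -0.75 and -0.45 and did not pass. Those of Col12a1 gave 0.07 and -0.20, which did not pass, and -0.61, which did.

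Cell type markers were measured beside these differences, against the same background of 40.9% of all genes called. Of the fibroblast markers 6 of 12 fell and none rose, with Lum, a small fibril-binding proteoglycan, lower by 5.01, and their summed level (log2 of the sum of linear intensities) lay between 15.0 and 15.1 in the normal samples against 13.9 to 15.1 in the tumors. Endothelial markers fell in 6 of 12 and smooth muscle and pericyte markers in 4 of 12, with 1 of the latter higher. The shares called in these lists are near the background. The normal samples also held ovarian cells other than epithelium. Their granulosa, theca and luteal markers summed to 14.6 to 15.3 against 10.7 to 13.6 in the tumors, and their oocyte markers to 13.7 to 14.4 against 8.8 to 13.3, with 11 of 12 genes lower in tumors in each list. Epithelial markers summed to at most 14.9 in the normal samples and to between 15.1 and 16.2 in the tumors, so every normal sample was lower in this sum than every tumor. Of the 14 epithelial genes 5 were called higher and 1 lower in tumors, a share near the background. The part of these cell types in the collagen differences was not tested.

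Genes that make and handle collagen were read against the same background of 40.9%. Of 21 genes that fold and modify collagen chains, 2 rose and 11 fell, above that background in share. P3h3 (-2.17, SE 0.39) and P3h2 (-1.94, SE 0.36), prolyl 3-hydroxylases, and Fkbp14 (-1.52, SE 0.41), a peptidyl-prolyl isomerase of the endoplasmic reticulum, showed the largest falls of the list, with limma adjusted p of 5.82e-05, 8.45e-05 and 0.00384. Serpinh1, the collagen-specific chaperone, fell by 1.14, whereas P4ha2, a prolyl 4-hydroxylase subunit, rose by 1.49. Of 12 genes that cleave procollagen or cross-link fibrils, 5 fell and none rose, a share near it, among them the lysyl oxidases Lox (-2.34) and Loxl1 (-1.42) and the aminopropeptidase Adamts3 (-1.96).

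Of 11 collagen receptors 2 fell, the endocytic receptor Mrc2 (-2.45) and the integrin chain Itga1 (-1.97), and Itgb1, the shared beta chain, rose by 0.68, a lower share than the background. Of 19 laminins and other basement membrane proteins, 7 rose and 6 fell, a higher share than the background. Lamb2 (1.64), Fras1 (1.55) and Lama5 (1.27) were higher in tumors, and Lama2 (-3.67) and Frem1 (-3.76) were lower. Lama2 is the laminin chain of muscle and stroma and Lama5 that of epithelia.

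**Figure D3:**
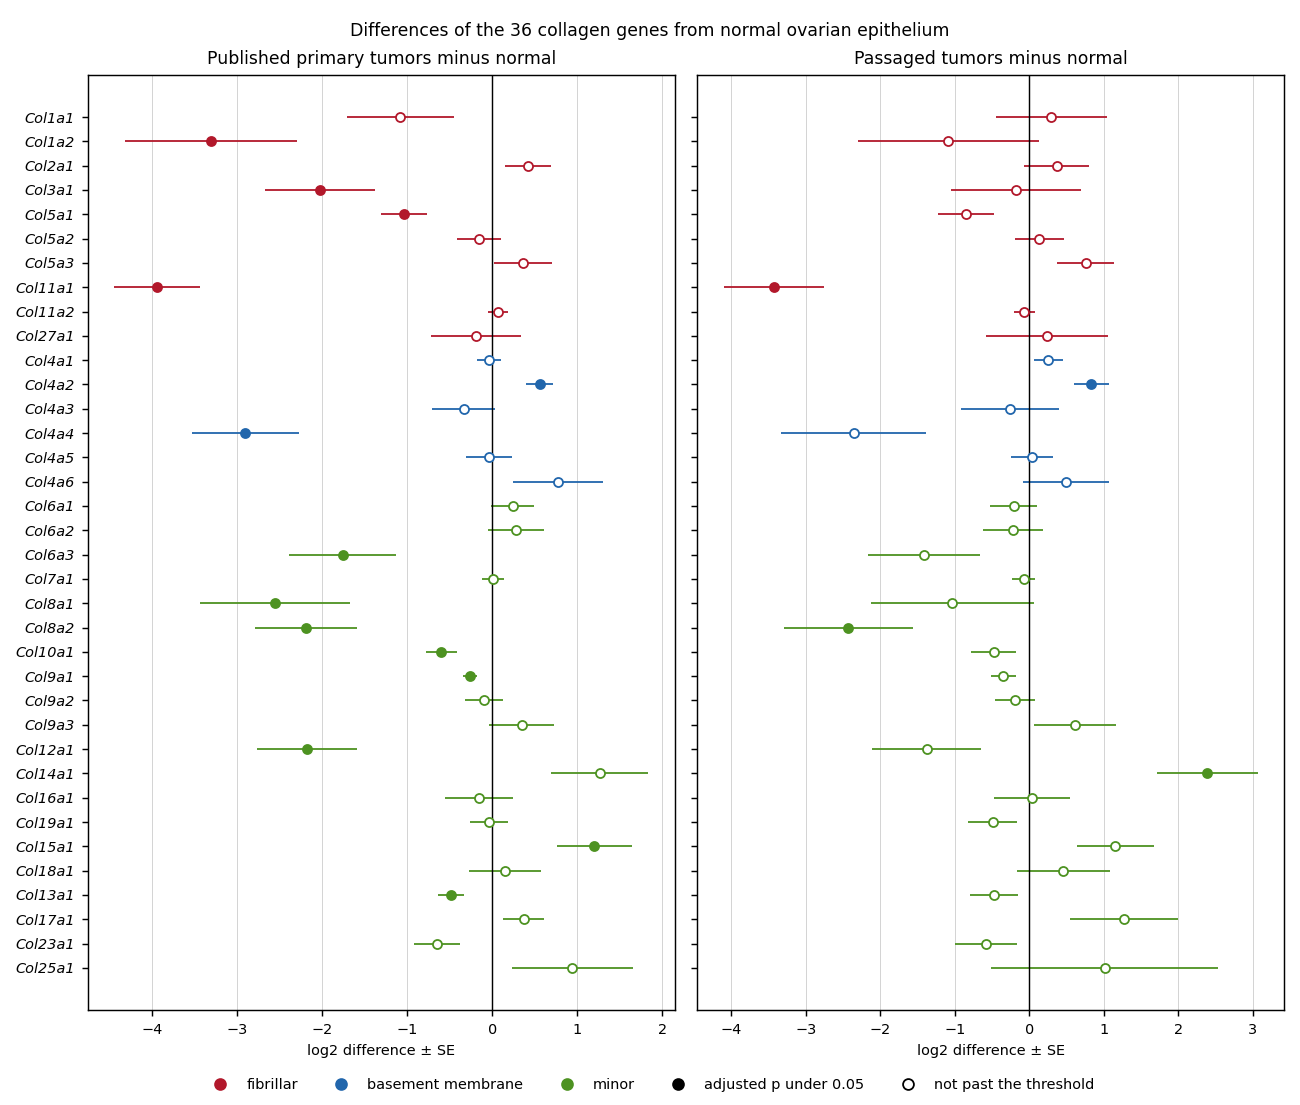
Log2 difference of each of the 36 collagen genes from normal epithelium with its SE, for the 26 published primary tumors (left) and the 25 passaged tumors (right), with filled points past the threshold. Col11a1 is far below 0 and Col4a2 above 0 in both panels, which share the 3 normal samples.

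Each tumor genotype was set against the same 3 normal samples. The fit called 7 of 36 collagens in Brca wild type p53-deleted tumors (background 33.3%), 14 in Brca1-deficient p53-deleted tumors (38.4%), 7 in Brca1-deficient p53-missense tumors (24.6%) and 10 in Brca2-deficient p53-missense tumors (34.7%). Col11a1 and Col4a4 were called lower in all 4. Since the groups hold 4, 14, 3 and 5 tumors and share their controls, the counts do not rank the genotypes. Without normal sample 3 the wild type count was 3, and it was 4 without replicate 1 of its tumors. Without normal sample 2 the other counts were 7, 3 and 5, and the Brca1-deficient p53-deleted count was 8 or 9 without either of the other normal samples. No share of all genes is set beside these reduced counts.

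Col1a2 shows the spread within genotypes. The Brca wild type tumors measured 9.47, 9.51, 13.19 and 12.08, the Brca1-deficient p53-missense tumors 7.02, 8.65 and 8.86, and the Brca2-deficient tumors 10.90, 8.16, 10.89, 9.25 and 9.14. The 14 Brca1-deficient p53-deleted tumors ran from 6.24 through a median of 10.13 to 12.19. The genotypes overlapped, apart from the wild type tumors, which were all above the 3 p53-missense, Brca1-deficient tumors. Against normal samples Col1a2 differed by -1.96 in wild type tumors (not past the threshold, limma adjusted p = 0.219), and by -3.35, -4.84 and -3.35 (all past it) in the Brca1-deficient p53-deleted, Brca1-deficient p53-missense and Brca2-deficient tumors.

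Direct comparisons of genotypes within the published set found no collagen past the threshold. For Brca1-deficient against wild type p53-deleted tumors 1 gene of all 18193 was called (0.00550%), and the lowest unadjusted p of a collagen belonged to Col8a2, at -1.24 (SE 0.51, 95% interval -2.31 to -0.18, limma adjusted p = 0.980). For p53 missense against deleted tumors 13 genes were called (0.0715%), none a collagen, and Col7a1 differed by -0.27 (95% interval -0.52 to -0.02). For Brca2- against Brca1-deficient tumors none of the genes was called (0%), and Col6a1 differed by -0.43 (95% interval -0.78 to -0.09).

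Passaged tumors and normal samples were compared in a fit of all 59 arrays that included the set, so that the value adds the passaged-to-primary difference of the new set to the primary-to-normal difference of the published set. The collagens called were 2 higher and 2 lower, against a background of 27.5% of genes (10.2% higher, 17.3% lower). Col14a1 was at 6.92, 6.94 and 6.33 in the normal samples and at 7.77, 8.77 and 10.57 in passaged tumors, and Col11a1 at 9.55, 9.78 and 10.46 against 4.79, 6.16 and 7.53. Neither gene overlapped between the groups.

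Col14a1 rose by 2.39 (SE 0.68, 5.24-fold, limma adjusted p = 0.00600) and Col11a1 fell by 3.43 (SE 0.67, limma adjusted p = 7.90e-05). Col4a2 rose by 0.83 (SE 0.24, limma adjusted p = 0.00572) and Col8a2 fell by 2.43 (SE 0.87, limma adjusted p = 0.0307). All 25 passaged tumors also lay below every normal sample in Col1a2, Col3a1 and Col5a1, as 10.9% of all genes did, and above them in Col14a1 alone of the collagens, as 6.40% did. The fitted differences of Col1a2 (-1.08) and Col3a1 (-0.18) were nevertheless not past the threshold (limma adjusted p = 0.535 and 0.902). Col1a1 had a fitted difference of 0.30, which turned to -0.54 without the set covariate, while 17 passaged tumors were below its normal range. Without normal sample 2, the lowest in Col4a2, 2 collagens were called, and without the set covariate 8 were. The shares of all genes called in these 2 fits are not given beside them.

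Whether collagen levels were kept on transplantation was asked within the new set, in a fit that included the Brca1 genotype. No collagen passed the threshold between the 25 passaged and the 5 primary tumors, nor did any other gene in limma's test (0%), and 8 of 36 collagens had an unadjusted p under 0.05, against 1179 of all 18193 genes (6.48%). Of these, 7 were higher in passaged tumors and Col6a1 was lower (-0.33).

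Col1a2 was at 10.55 and 7.50 in the Brca1-deficient primary tumors and at 12.06, 7.38 and 7.85 in the wild type ones. The passaged tumors ran from 7.83 through a median of 11.43 to 12.67. Passaged tumors thus overlapped the primary tumors, of which 2 were high and 3 low. The difference was 2.08 (SE 0.69, 95% interval 0.68 to 3.48, limma adjusted p = 0.529). Col3a1 was at 11.98, 8.51, 12.43, 7.94 and 9.03 in the same primary tumors and at 8.24, 12.01 and 12.76 in the passaged tumors, a difference of 1.70 (SE 0.55, limma adjusted p = 0.502).

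Col1a1 was at 12.43, 9.82, 12.74, 9.28 and 9.88 in the primary tumors and at 10.00, 12.39 and 12.81 in the passaged tumors. It showed the same 2 high and 3 low primary tumors, and its difference was 1.26 (SE 0.41, limma adjusted p = 0.502). Without the wild type primary tumor at 12.74 it was 1.77 with an adjusted p of 0.0453, and Col1a1 alone of the collagens was then called. Of the basement membrane pair, Col4a1 differed by 0.25 (95% interval -0.02 to 0.53) and Col4a2 by 0.21 (95% interval -0.11 to 0.52), neither past the threshold. Macrophage markers differed the same way as Col1a1, Col1a2 and Col3a1, with 11 of 12 at an unadjusted p under 0.05. Their summed level was 12.1, 12.2 and 13.9 in primary against 12.4, 13.8 and 14.2 in passaged tumors (lowest, median and highest). At the same unadjusted p, smooth muscle and pericyte markers had 5 of 12 and fibroblast markers 3 of 12. Differences were above 0 for 11 of 12 genes in both of the latter lists. Their part in the collagen differences was not tested.

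The slope over passages used the 18 new Brca1-deficient tumors, with primary tumors as passage 0. Of the 36 collagens 1 rose and 1 fell, against 15.2% of all genes called (8.70% higher and 6.46% lower). Col17a1, the membrane-spanning collagen of hemidesmosomes that ties basal keratinocytes to the basement membrane, was at 5.68 and 4.78 in the primary tumors and at 4.97, 4.99, 5.18 and 5.16 in passage 1. Passage 2 gave 5.31, 5.65, 4.74 and 5.85, and passage 3 gave 7.93, 6.13, 6.22 and 6.18, of which the last pair are the near-identical arrays. Passages 4 and 5 gave 8.66 and 8.54, then 8.40 and 8.08. All 8 tumors of passages 3 to 5 were above all earlier tumors and above the normal samples, at 4.72, 4.78 and 4.44. This split was read off the values, and the share of all genes that split alike was not counted.

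Col17a1 rose by 0.79 log2 units per passage (SE 0.11, 95% interval 0.56 to 1.02, limma adjusted p = 3.10e-04). No wild type tumor of the new set exceeded 5.66, but none was passaged beyond passage 2. With primary tumors and passages 1 to 3 alone, an alternative chosen after seeing the data, the slope was 0.52 with an adjusted p of 0.266. Passages 4 and 5 hold 2 tumors each, whose line the labels do not give, and passage and line cannot be told apart there.

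Col8a2 fell by 0.52 per passage (SE 0.15, limma adjusted p = 0.0275). Its primary tumors were at 11.88 and 7.70, passage 1 at 9.56, 9.74, 10.41 and 8.20, and passage 2 at 9.67, 9.84, 8.60 and 8.94. The primary tumor at 11.88 is the one also profiled in the published set, where Col8a2 was at 9.89, so the high value did not repeat. Passage 3 was at 8.93, 8.92, 9.54 and 9.55, passage 4 at 6.97 and 7.27, and passage 5 at 7.46 and 7.25. The 4 tumors of passages 4 and 5 were below all the others, a split whose share over all genes was not counted either. The call was lost on leaving out any 1 of these 4 tumors or the primary tumor at 11.88 (adjusted p up to 0.0954), and with passages 1 to 3 alone the slope was -0.17.

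Col4a4 behaved alike without passing the threshold. It was at 10.90 and 7.66 in the primary tumors, at 10.60, 10.85, 10.12 and 9.19 in passage 1 and at 10.42, 10.47, 11.44 and 9.60 in passage 2. Passage 3 measured 9.96, 8.21, 9.56 and 9.55, passage 4 was at 8.92 and 8.65, and passage 5 at 7.34 and 7.12. The passage 5 tumors were the lowest and the primary tumor at 7.66 came next. The slope was -0.47 (SE 0.16, limma adjusted p = 0.0557), and without that primary tumor it was -0.68 with an adjusted p of 0.00109. The fit then called 7 collagens, a count not set against the share of all genes.

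**Figure D4:**
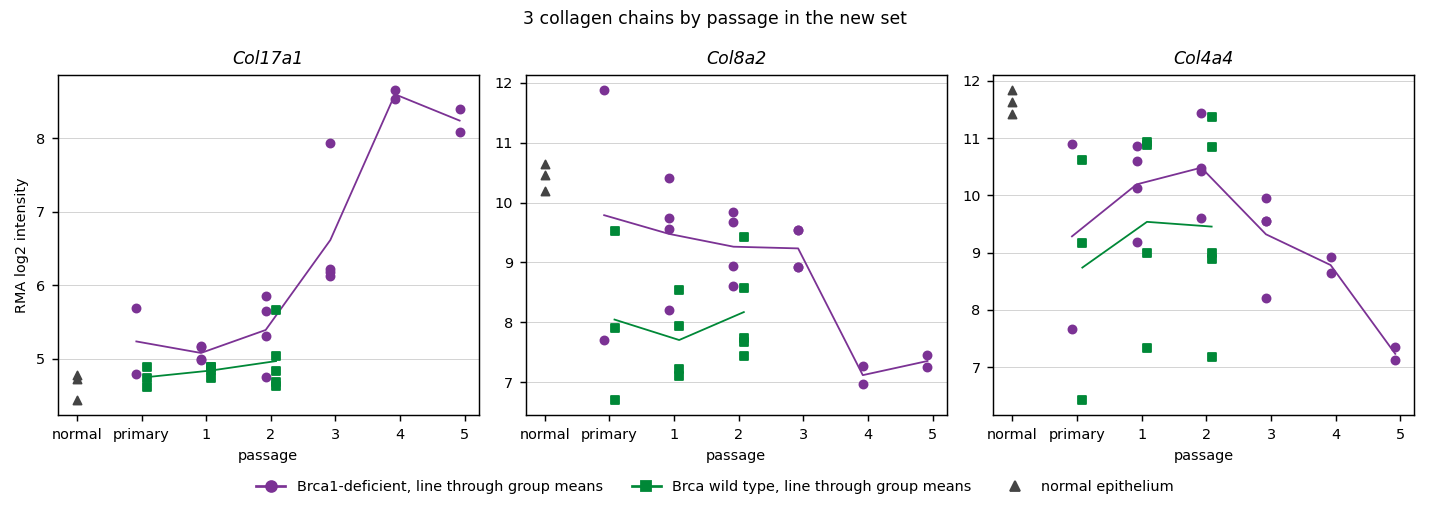
RMA log2 intensity of Col17a1, Col8a2 and Col4a4 in the normal samples, the new primary tumors and passages 1 to 5, with points for arrays and lines through group means. Col17a1 stays under 6 through passage 2 and is above 8 in passages 4 and 5, and Col8a2 is at 7.46 or lower in passages 4 and 5.

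Other lists were read against the same 15.2% of all genes called. Macrophage markers rose in 6 of 12 genes and fell in none. Fibroblast and endothelial markers rose in 3 of 12 each, ovarian surface epithelium markers in 3 of 11 and smooth muscle and pericyte markers in 2 of 12, with none lower, and of the epithelial markers 1 of 14 rose and 2 fell. Oocyte markers rose in 2 of 12. Their summed level was between 12.9 and 13.5 in the 4 tumors of passages 4 and 5. In passages 1, 2 and 3 its medians were 10.7, 10.9 and 11.5 and its highest values 11.8, 11.4 and 12.8. The higher of the 2 primary tumors lay between 12.9 and 13.5 too, and the 2 were at 5.68 and 4.78 in Col17a1. Passaged wild type tumors, with Col17a1 at 5.66 or lower, had a median of 12.7 and a highest value of 13.3 in this sum. The part of these cell types in the slopes of the collagens, that of Col17a1 included, was not tested. Of the folding genes Plod1, Ppib and Serpinh1 rose by 0.07 to 0.21 per passage and Plod2, a lysyl hydroxylase of cross-link sites, fell by 0.52. Loxl1 rose by 0.27 and Loxl3 fell by 0.21. The counts called in the lists of these collagen-handling genes are not given, so the lists are not read against the background.

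Brca1-deficient and wild type tumors of the new set were compared with primary or passaged as a covariate. The collagens called were 3 higher and 2 lower in Brca1-deficient tumors, all of them minor chains, against 11.1% of all genes called (6.49% higher and 4.60% lower). The groups overlapped in each of the 5. Col6a1 was at 12.02, 12.32 and 13.04 in the 18 Brca1-deficient tumors and at 12.27, 12.87 and 13.39 in the 12 wild type tumors (lowest, median and highest). Col6a2 was at 11.36, 11.72 and 12.62 against 11.44, 12.63 and 12.97. Of the Brca1-deficient tumors 17 and 18 were below the wild type median. Col6a1 was lower by a log2 difference of -0.48 (SE 0.12, limma adjusted p = 0.00870) and Col6a2 by -0.54 (SE 0.16, limma adjusted p = 0.0232). Both chains join Col6a3 in the beaded filament, and Col6a3 was not called.

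Col14a1 was at 7.33, 9.02 and 10.57 in Brca1-deficient tumors and at 7.04, 7.92 and 10.06 in wild type tumors, a difference of 0.90 (SE 0.24, limma adjusted p = 0.0152). Col9a3, a cartilage fibril-associated chain, was at 6.32, 7.13 and 9.18 against 6.22, 6.48 and 6.82, a difference of 0.86 (SE 0.24, limma adjusted p = 0.0217). For Col9a3, 14 of 18 Brca1-deficient tumors were above every wild type tumor. Col17a1 was at 4.74, 5.77 and 8.66 against 4.61, 4.84 and 5.66, a difference of 1.30 (SE 0.41, limma adjusted p = 0.0364).

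Passages 3 to 5 held Brca1-deficient tumors alone. With primary tumors and passages 1 and 2 alone, where both genotypes are present, no collagen was called. With passage number as the covariate, which was chosen after seeing the data, Col6a1, Col9a3 and Col8a2 were called. Neither fit is set against its share of all genes called. Genotype and late passage cannot be told apart in the other tumors.

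In the published set the same 5 genes differed by -0.34 (Col6a1), -0.46 (Col6a2), -0.60 (Col14a1), -0.24 (Col9a3) and -0.16 (Col17a1) between Brca1-deficient and wild type tumors, with no call. The interaction of genotype and set called 26 genes (0.143%) and no collagen. It was 1.49 for Col14a1 (95% interval 0.42 to 2.57, limma adjusted p = 0.281) and 2.24 for Col8a2 (95% interval 0.80 to 3.68, limma adjusted p = 0.224).

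Among collagen-handling genes, Serpinh1 (0.70), P3h2 (1.21), Lox (1.49), Loxl1 (0.77) and Mrc2 (0.85) were higher in the new Brca1-deficient tumors. Ddr2, a fibrillar collagen receptor kinase, was lower by a log2 difference of -1.13 and the integrin chain Itga10 by -1.05. Nid1, which bridges laminin and type IV collagen, was higher by 0.71. These are single genes of their lists, whose counts called are not given, so the lists are not read against the background. Endothelial markers were lower in 4 of 12 genes and epithelial markers in 2 of 14, and smooth muscle and pericyte markers were higher in 2 of 12 and fibroblast markers in 1 of 12, beside 11.1% of all genes called. Epithelial markers had 7 of 14 and macrophage markers 7 of 12 at an unadjusted p under 0.05, the latter with none called, against 4642 of 18193 genes (25.5%). Their part in the collagen differences was not tested.

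The 5 new primary tumors were also compared with the 18 published primary tumors that had deleted p53, leaving out the 8 with p53 missense, with the Brca1 genotype as a covariate. No collagen passed the threshold (65 genes or 0.357% called). One tumor was profiled in both groups, and without it no collagen was called either. Col3a1 differed by -1.58 (95% interval -3.02 to -0.14), Col1a2 by -1.30 and Col1a1 by -1.11, each lower in the 5 new tumors, and the intervals do not show that the sets are alike.

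Col25a1 passed the threshold in no comparison and yet its brighter probe set split the new set. The dimmer one (mean 6.55 against 8.62) varied far less there. Its SE between passaged and primary tumors was 0.14, against 1.23 for the brighter one, so the split rests on 1 probe set. In 8 tumors the brighter probe set was between 11.98 and 12.41, in a pair at 10.44 and 10.89, and in the other 20 between 5.63 and 8.54. The 8 tumors were 1 wild type primary tumor, 3 wild type tumors of passages 1 and 2 and 4 Brca1-deficient tumors of passages 2 and 3, both near-identical pairs included. The published tumors ran from 6.16 to 11.21 and the normal samples were at 6.59, 8.95 and 7.90.

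Chains of 1 collagen type, and Col1a1 with Col3a1 and with Col4a1, which are of other types, were compared across tumors within each set. The 8 pairs are described in 26 published and 28 new arrays, the latter with near-identical arrays counted once. These arrays share lines in the new set, so no test is given. Pearson's r was 0.93 and 0.94 for Col1a1 with Col1a2, 0.59 and 0.93 for Col1a1 with Col3a1, and 0.94 and 0.97 for Col6a1 with Col6a2 (published, then new). The type IV pairs gave 0.88 and 0.96 for Col4a1 with Col4a2 and 0.78 and 0.88 for Col4a3 with Col4a4. Col4a5 with Col4a6 gave 0.33 and 0.48, and the published value was -0.11 without the 2 tumors farthest from the median of Col4a5. Col5a1 with Col5a2 gave 0.43 and 0.76, with 0.14 in the published set without the 2 farthest tumors. Col1a1 with Col4a1, also chains of different types, gave 0.59 and 0.49.

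**Figure D5:**
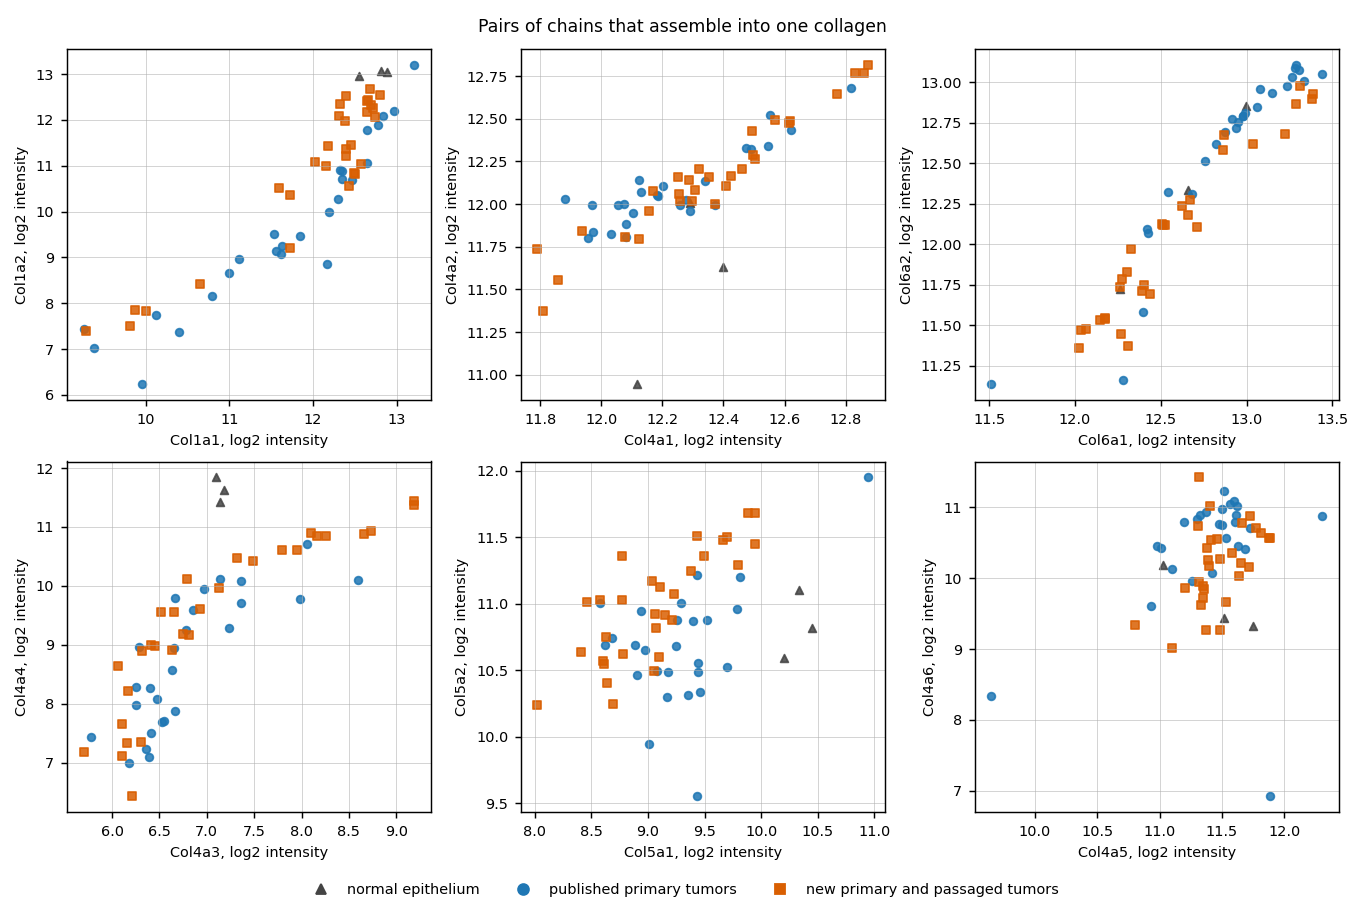
Log2 intensity of 6 pairs of chains that assemble into a shared collagen, with a point for each array and each axis for 1 chain. Points follow a line for Col1a1 with Col1a2, Col4a1 with Col4a2 and Col6a1 with Col6a2, and scatter for Col4a5 with Col4a6.

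The start regions of 2 type IV pairs are shown because these pairs lie head to head on opposite strands and yet differed in how closely their levels moved together. They are RefSeq windows of 300 bases on build GRCm38.p6, 250 before to 50 after the start, and such windows were found for 29 of the 36 collagens. None was found for Col4a3, so its pair with Col4a4 is not shown. Whether the distance between starts bears on the levels was not tested. The starts of Col4a1 (chr8:11312777-11313076, minus strand) and Col4a2 (chr8:11312555-11312854, plus strand) are 21 bases apart, and the capitals mark the 78 bases that their windows share, read on opposite strands. The starts of Col4a5 (chrX:141475169-141475468, plus strand) and Col4a6 (chrX:141474027-141474326, minus strand) are 1343 bases apart and their windows share none, and the capitals mark matches to CCAAT or GGGCGG on either strand.
Col4a1: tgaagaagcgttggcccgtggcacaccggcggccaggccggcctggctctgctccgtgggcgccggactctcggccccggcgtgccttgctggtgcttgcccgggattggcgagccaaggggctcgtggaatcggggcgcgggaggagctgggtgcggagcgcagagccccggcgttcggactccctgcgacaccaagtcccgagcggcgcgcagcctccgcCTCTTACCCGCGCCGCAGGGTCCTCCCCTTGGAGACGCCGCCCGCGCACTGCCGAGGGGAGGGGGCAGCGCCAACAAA
Col4a2: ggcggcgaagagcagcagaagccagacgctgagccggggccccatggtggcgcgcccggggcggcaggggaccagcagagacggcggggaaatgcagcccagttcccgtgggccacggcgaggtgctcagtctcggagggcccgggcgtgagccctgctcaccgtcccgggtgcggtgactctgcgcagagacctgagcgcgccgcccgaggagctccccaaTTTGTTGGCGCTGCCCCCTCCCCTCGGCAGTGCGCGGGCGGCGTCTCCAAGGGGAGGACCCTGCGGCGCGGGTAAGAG
Col4a5: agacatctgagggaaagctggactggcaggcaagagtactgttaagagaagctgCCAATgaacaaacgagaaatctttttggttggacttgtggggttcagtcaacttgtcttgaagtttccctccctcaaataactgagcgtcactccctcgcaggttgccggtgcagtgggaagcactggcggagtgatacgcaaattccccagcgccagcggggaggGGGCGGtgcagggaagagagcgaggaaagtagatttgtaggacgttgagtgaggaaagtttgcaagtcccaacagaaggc
Col4a6: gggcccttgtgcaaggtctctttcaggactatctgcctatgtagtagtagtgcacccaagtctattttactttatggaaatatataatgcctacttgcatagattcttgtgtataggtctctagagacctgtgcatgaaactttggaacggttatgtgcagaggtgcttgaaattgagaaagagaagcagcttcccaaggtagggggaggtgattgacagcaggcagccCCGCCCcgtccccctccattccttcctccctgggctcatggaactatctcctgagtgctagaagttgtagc

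The Col4a1 and Col4a2 windows hold 74.0% and 73.7% G and C, and those of Col4a5 and Col4a6 hold 52.7% and 48.3%. CCAAT, searched on both strands, was found in the windows of Col4a1, Col4a2 and Col4a5 and in 12 of the 29 collagens, against 37.4% of all 32851 promoter windows. GGGCGG was found in all 4 windows and in 19 of the 29 collagens, against 35.7% of all windows. TATAAA was in none of the 4 and in 5 of the 29, Col3a1 and Col17a1 among them, against 13.6% of all. These motifs are runs of letters, and the matches describe the windows.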

How the data were processed

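Transcript levels were measured on 59 Affymetrix mouse arrays, 29 of a published and 30 of a new set. The authors made log2 intensities with RMA (version not given in the sources used here) for the 45037 probe sets they deposited. RMA sets all arrays to a shared distribution, and array medians ran from 7.20 to 7.51. Precision is limited by the number of arrays. The authors also deposited merged human and mouse log2 values, of which 278 columns of other samples were not used.

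The platform annotation named a single gene for 34945 probe sets, and those with several genes (932) or none (9160) were left out. Each of 18193 genes took its probe set with the highest mean, and 23 collagens had more than 1. Groups came from the sample labels. Two-sided tests came from limma 3.58.1 (lmFit, eBayes) in R 4.3.3 with Benjamini-Hochberg adjustment over all 18193 genes. Correlations used SciPy 1.17.1 in Python 3.11.15. The models were tested on simulated data.

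Values by sample were given for Col1a1, Col1a2, Col3a1, Col4a1, Col4a2 and up to 4 members of a class with the largest change past the threshold, or else that with the lowest p. The members and lists were chosen with earlier results of these data known. Alternatives were the mean of a gene's probe sets, genes at or above the median level, array weights, trend and robust moderation, the merged table, near-identical arrays counted once, other covariates or passages, and leaving out samples in turn.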

Additional observations from a re-analysis of the deposited data

Results flagged for a closer look

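Within each group of 4 to 10 samples, the highest and lowest level of 25 collagens was set against its neighbor with Dixon's test. Of 350 such ends in 175 combinations of gene and group, 20 stood apart from the rest of their group, and chance gives about 1 in 20 groups. They fell in 10 tumors.

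Replicate 2 of the Brca wild type, p53-deleted published tumors had the highest Col6a1 (13.44, next 12.98), Col6a2 (13.05) and Col7a1 (6.40) of its group. Replicate 3 of the Brca2-deficient, p53-missense tumors stood apart in 5 collagens, with the highest Col4a2 (12.14), Col10a1 (7.43, next 6.24) and Col17a1 (5.71) and the lowest Col4a6 (9.97) and Col6a2 (12.07).

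In the new set, low type I collagen set 3 tumors apart. Col1a1 was 10.65 in replicate 4 of the passage 1 Brca1-deficient tumors, whose others were at 12.39 or more. Replicate 4 of the passage 2 Brca1-deficient tumors had Col1a1 at 11.72 and Col1a2 at 9.21, with the next Col1a2 at 12.33. Replicate 4 of the passage 1 wild type tumors had Col1a1 at 10.00 and Col1a2 at 7.83, with the next Col1a1 at 12.15.

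The remaining values were high ones. Replicate 1 of the passage 3 Brca1-deficient tumors had Col17a1 at 7.93, with the next at 6.22, and Col4a5 at 11.89, and replicate 2 had Col8a1 at 10.57 and Col15a1 at 9.11. Among passage 2 Brca1-deficient tumors, replicate 1 had Col4a5 at 11.65 and replicate 2 had Col6a1 at 12.67. Replicate 1 of the passage 2 wild type tumors, which is near-identical to an array labelled Brca1-deficient, had Col11a1 at 7.52, with the next at 5.51.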

How the results depend on the processing

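Samples were left out 1 at a time, and only from groups of 5 or fewer, so no tumor of the larger groups was left out, nor any of passages 1 to 3. This covers the normal samples alone for primary and Brca1-deficient p53-deleted tumors, normal samples and tumors for the other genotypes, the 5 new primary tumors (and normal samples) for passaged tumors and Brca1, and the 2 primary tumors and 4 tumors of passages 4 and 5 for the slope. It moved the count of collagens called to 8 to 11 (from 14) for primary tumors against normal samples, 3 to 7 (from 7), 7 to 9 (from 14), 3 to 7 (from 7) and 5 to 10 (from 10) for wild type, Brca1-deficient p53-deleted, Brca1-deficient p53-missense and Brca2-deficient tumors, 2 to 5 (from 4) for passaged tumors against normal samples, 0 to 1 for passaged against primary tumors, 1 to 7 (from 2) for the slope per passage and 5 to 7 (from 5) for Brca1 in the new set. With array weights the counts were 17 (wild type against normal), 16 (Brca1-deficient p53-missense against normal), 11 (slope), 10 (Brca1, new set) and 1 (interaction, Col8a2). With only the genes that reach the median level, which hold 18 of the 36 collagens, they were 9 (primary), 2 (wild type), 8 (Brca1-deficient p53-deleted), 2 (passaged) and 2 (Brca1, new set). The merged table, which holds 24 of them, gave 3 for Brca1 in the new set, passage number as the covariate gave 3, and passages 1 and 2 with primary tumors gave 0. Without the set covariate 8 collagens were called for passaged tumors against normal samples. The slope had 7 calls in passaged tumors alone, and 0 with primary tumors and passages 1 to 3, also with near-identical arrays counted once. The cause of these shifts was not tested. The share of all genes called can shift with the setting too. It is not set beside the counts under these alternatives, here or above. The counts are thus not read as a result about the collagens in particular.

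Directions turned in few cases, none of them past the threshold. Col4a1 in primary tumors was 0.23 as the mean of its probe sets and ran from -0.11 to 0.029 as 1 normal sample was left out. Against normal samples, Col1a1 in passaged tumors was -0.54 without the set covariate and -0.088 to 0.78 as 1 sample was left out, and Col3a1 was 0.44 with array weights and -0.69 to 0.44 as 1 sample was left out. In the published set the Brca1 difference of Col17a1 ran from -0.29 to 0.063 and that of Col9a3 from -0.46 to 0.077, and the p53 difference of Col4a6 from -1.75 to 0.073. Under the alternatives other than leaving out a sample, 557 values of single genes kept their direction and side of the threshold, 24 lost the call, 9 gained it and 3 turned, and on leaving out a sample 406 kept both, 85 lost the call, 4 gained it and 7 turned. No paired analysis was possible because the labels give no replicate numbers shared between groups. Of the 23 collagens with several probe sets, none had probe sets called in opposite directions in primary tumors against normal samples, 7 had probe sets of opposite sign and 5 had every probe set called the same way. The other probe set of Col4a6 was called higher (1.57, limma adjusted p = 0.0193).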
